A study of Mus musculus with 9 samples.

Results

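Macrophages that take up dying red cells and iron-laden debris break haem down and then either store the freed iron or return it to the tissue. The 8 genes described here cover those steps: Hmox1 and Blvrb (haem degradation), Fth1 and Ftl1 (iron storage), Slc40a1 (iron export), and Tfrc, Slc11a1 and Slc11a2 (iron uptake and transfer across endosomal or lysosomal membranes). They were taken by symbol from the deposited table, where each of the 8 had 1 row among 18042 genes. All 8 were among the 13090 genes that passed the filter on low counts, and their expected counts were whole numbers in all 9 libraries.

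RNA came from tumour-associated macrophages sorted by FACS on CD11b and F4/80 from subcutaneous MC38 tumours, a mouse colon carcinoma line. The hosts were wild-type female C57BL/6 mice aged 6 to 8 weeks, each given 1000000 tumour cells and split into groups on day 9. Control tumours were injected with solvent (PBS in the sample descriptions), and the other groups received OMVs or IN@OMVs into the tumour at 12.5 µg of vesicle protein per mouse (625 µg per kg body weight), with 3 biological replicates per group and libraries made with oligo-dT beads. OMVs usually stands for outer membrane vesicles, small membrane sacs released by bacteria. The labels do not spell out what IN stands for, how many injections were given, or whether a replicate was 1 mouse or a pool, so p-values measure the spread between these libraries. All groups carried the same tumour line, and the design has no tumour-free macrophages.

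Iron levels feed back on several of these transcripts. When cellular iron is scarce, iron regulatory proteins bind hairpins called iron-responsive elements: binding in a 5′ UTR blocks translation, as in the ferritin transcripts, and binding in the 3′ UTR protects the Tfrc transcript from decay. Haem adds another layer, since it releases the repressor BACH1 from antioxidant response elements, which NRF2 also uses, and Hmox1, the ferritin genes and Slc40a1 are known targets of that pair. RNA levels can therefore show changes in transcription and in Tfrc decay, but they do not show ferritin translation.

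Slc40a1 and some Slc11a2 transcripts are also known to carry iron-responsive elements. The hairpins of the ferritin and Tfrc transcripts are shown because iron acts on these transcripts through them. They come from GENCODE M21 transcripts on GRCm38, written as DNA in lower case with the 6-base loop in capitals. Each match, on the sense strand, had a C, then 5 stem bases, the loop CAGTGN and 5 bases that pair with the first stem (G-T pairs allowed). At least 1 transcript of 1.34% of 21901 genes with a protein-coding transcript held such a match. Matches are descriptions of letters, not measured binding. Hairpins with another loop or an unpaired stem base were missed by this search, so a transcript may hold more than those shown.
Fth1: ttcctgcttcaaCAGTGCttgaacggaa
Ftl1: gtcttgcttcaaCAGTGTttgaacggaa
Tfrc hairpin 1: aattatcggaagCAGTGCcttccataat
Tfrc hairpin 2: cattatcgggagCAGTGTcttccataat
Tfrc hairpin 3: ctatatcggagaCAGTGAtctccatatg
Tfrc hairpin 4: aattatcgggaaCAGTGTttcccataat

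The Fth1 hairpin lies in the 5′ UTR at chr19:9982732-9982759 (plus strand) and the Ftl1 hairpin in the 5′ UTR at chr7:45459780-45459807 (minus strand). The Tfrc hairpins lie in the 3′ UTR on the plus strand at chr16:32631219-32631246, chr16:32631598-32631625, chr16:32631663-32631690 and chr16:32631710-32631737. No match was found in the transcripts of Blvrb and Slc11a1 that were searched. The RefSeq promoter table (GRCm38.p6) matched 5 of the 8 genes, not Hmox1, Slc40a1 or Slc11a2, and the hairpin search covered the same 5. Those promoters were searched from 250 bases before the start to 50 after it, on either strand, for TGANNNNGC. These letters are a loose form of the antioxidant response element core, and 41.3% of all 32851 promoters held them. A match alone therefore does not mark such an element. The letters occurred in Blvrb and Slc11a1 and not in Ftl1, Fth1 or Tfrc. Sequence outside that window was not searched, so a gene without a match here may hold the element elsewhere.

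Libraries held 16813230 to 17288322 expected counts. Summed T cell markers were 216 to 248 CPM (counts per 1000000 after TMM scaling) in the 3 libraries numbered 1 and 44.0 to 102 in the other 6. Summed fibroblast markers reached 1633 CPM in IN@OMVs 1, whereas the other 8 libraries lay between 3795 and 6311. Summed macrophage markers (10 genes, none at 0 in any library) were 8464 to 12896 CPM, and none of the 10 was called in any comparison. Since the samples are bulk RNA, fewer cells of a type and less RNA per cell cannot be told apart.

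Against Control, IN@OMVs macrophages had more Hmox1, Slc40a1 and Blvrb RNA and less Tfrc RNA, so 4 of the 8 genes passed the edgeR quasi-likelihood test (Benjamini-Hochberg adjusted p under 0.05), where 6.55% of all genes tested did. Against OMVs at the same vesicle dose, 3 of the 8 passed (Hmox1 and Slc40a1 higher, Tfrc lower), where 2.85% of all genes did. OMVs against Control gave 0 of 8 in edgeR, where 0.42% of all genes passed. In that comparison 2 of the 8 had an unadjusted p under 0.05, where 1105 of all 13090 genes tested did. DESeq2 called 1 of the 8 and 207 of all genes, and limma-voom called 0 of the 8 and 36 of all genes. The members were chosen with earlier results of these data known. In OMVs against Control the libraries of 3 of the 8 genes did not overlap, Blvrb and Slc11a2 above and Slc40a1 below, where 19.8% of all genes did not overlap (9.89% above and 9.89% below). In IN@OMVs against Control this held for 5 of 8, 4 above and 1 below, where it held for 25.9% of all genes (13.3% above and 12.5% below). In IN@OMVs against OMVs it held for 5 of 8, 3 above and 2 below, where it held for 17.6% of all genes (8.86% above and 8.72% below). IN@OMVs against Control and IN@OMVs against OMVs share the IN@OMVs libraries, so they are not independent.

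**Figure D1:**
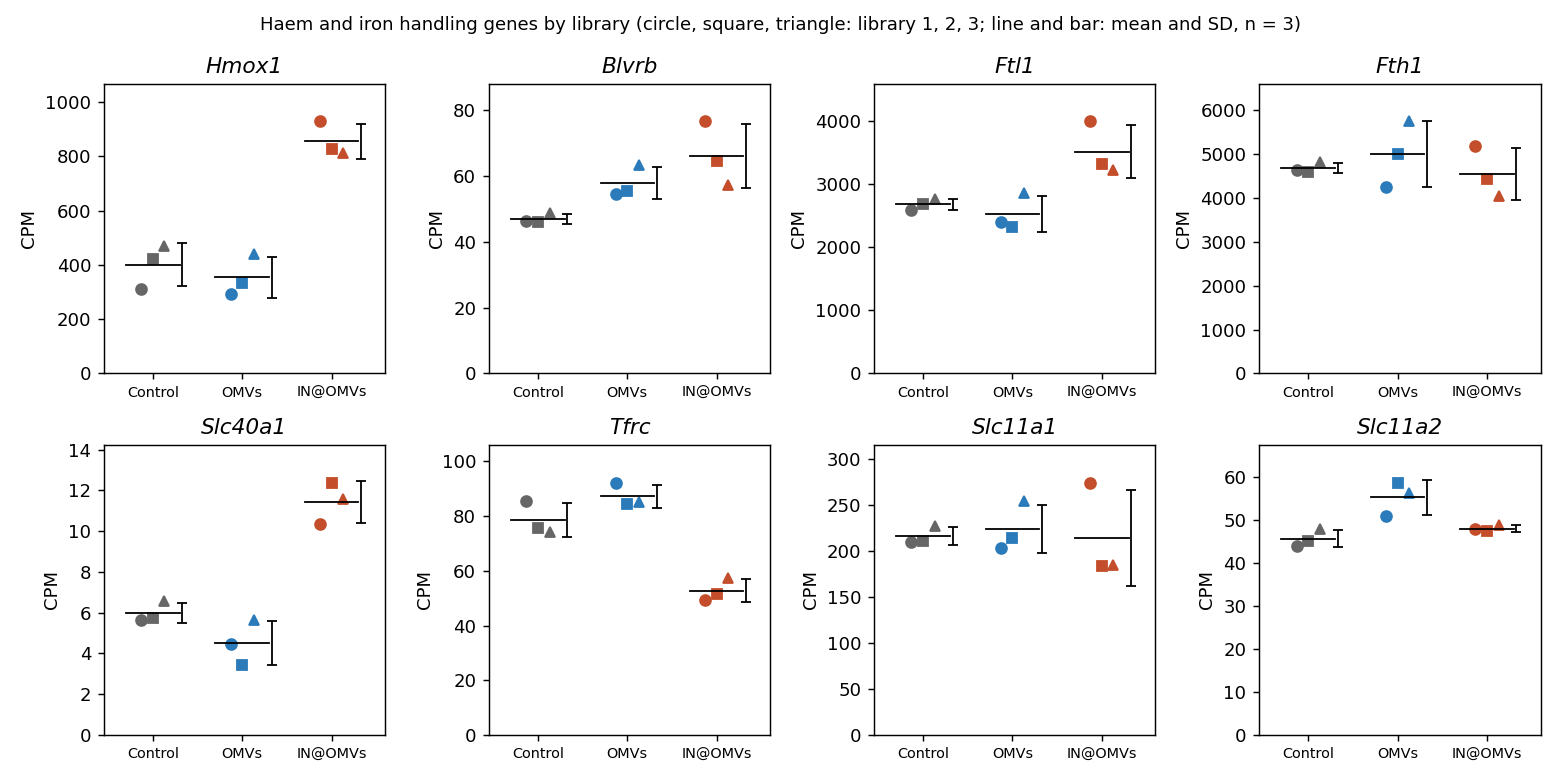
CPM of the 8 genes (vertical axes, each from 0) in the 3 libraries of Control, OMVs and IN@OMVs, with symbols for the library number, lines for group means and bars for SD. Hmox1 and Slc40a1 lie higher and Tfrc lower in all 3 IN@OMVs libraries than in the other 6, while Fth1 and Slc11a1 overlap between groups.

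Haem degradation starts with Hmox1, which encodes haem oxygenase 1, the inducible enzyme that opens haem into biliverdin, carbon monoxide and iron. Hmox1 stood at 928, 826 and 811 CPM in IN@OMVs 1, 2 and 3, at 291, 331 and 438 in OMVs, and at 313, 421 and 470 in Control. The lowest IN@OMVs library was above the highest of the other 6. Hmox1 rose 2.13-fold against Control (log2 fold change 1.09 ± 0.18 SE, n = 3 each, edgeR adjusted p = 0.00722) and 2.42-fold against OMVs (1.27 ± 0.18, edgeR adjusted p = 0.00604). OMVs and Control overlapped, and the interval of their log2 difference ran from -0.58 to 0.22.

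Hmox1 passed in both IN@OMVs comparisons under each of 18 alternatives. Its highest adjusted p among them was 0.0353 against Control and 0.0408 against OMVs. Haemoglobin transcripts, a sign of red cell precursors or carried-over RNA, differed between IN@OMVs libraries. The summed erythroid list (12 of 13 markers measured) was 27.9 CPM in IN@OMVs 1, 15.8 CPM for replicate 2 and 5.65 CPM for replicate 3, against 6.45 to 7.69 in Control and 5.19 to 13.6 in OMVs. None of the 5 erythroid markers tested was called, and between 3 and 7 of the 12 were at 0 in each library, the defining genes Slc4a1, Epb42, Gata1 and Ahsp among those at or near 0. The median log2 difference of the 5 tested was 1.43 in IN@OMVs against Control and 1.10 in IN@OMVs against OMVs. The part of erythroid RNA in the Hmox1 difference was not tested.

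Blvrb encodes biliverdin reductase B, a reductase of biliverdin and flavins. Blvrb stood at 76.7, 64.5 and 57.3 CPM in IN@OMVs 1, 2 and 3, at 54.6, 55.6 and 63.6 in OMVs, and at 46.3, 46.1 and 48.8 in Control. Every vesicle-treated library was above every Control library, and both treated groups overlapped. Blvrb rose 1.41-fold in IN@OMVs against Control (log2 0.49 ± 0.10, edgeR adjusted p = 0.0257). With the replicate number as a block the edgeR adjusted p was 0.0604. The call also ended in a fit of only these 2 groups (0.0626) and without IN@OMVs 2 (0.056), Control 1 (0.0942), Control 2 (0.107) or Control 3 (0.0901). In OMVs against Control the log2 difference was 0.30 ± 0.10 (edgeR adjusted p = 0.422), and between IN@OMVs and OMVs it was 0.19, with an interval from -0.044 to 0.43.

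The other haem-degrading genes did not pass in any comparison. Hmox2, the constitutive haem oxygenase, had a log2 difference of 0.013 ± 0.12 in IN@OMVs against Control (its expected counts were fractional in all 9 libraries, so some reads were shared with other sequences). Blvra, the main biliverdin reductase, had 0.15 ± 0.099. Por, which supplies electrons to haem oxygenases, had 0.13 ± 0.082.

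Iron is stored in ferritin, a shell of heavy chains, which oxidise iron, and light chains, which help it mineralise. The light chain gene Ftl1 stood at 3990, 3316 and 3219 CPM in IN@OMVs 1, 2 and 3, at 2404, 2324 and 2859 in OMVs, and at 2592, 2685 and 2760 in Control. All 3 IN@OMVs libraries were above the other 6, yet Ftl1 missed the threshold against Control (log2 0.39 ± 0.11, edgeR adjusted p = 0.0674) and against OMVs (0.47 ± 0.11, edgeR adjusted p = 0.054). DESeq2 called it in both (adjusted p = 0.00686 and 0.000763), as did edgeR with genes limited to a mean of at least 5 CPM (0.0493 and 0.0346). Against OMVs it also passed with upper quartile scaling (0.0364) and without IN@OMVs 1 (0.03) or OMVs 3 (0.0494).

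The heavy chain gene Fth1 overlapped between all groups. It stood at 5200, 4435 and 4038 CPM in IN@OMVs 1, 2 and 3, at 4249, 5001 and 5749 in OMVs, and at 4631, 4604 and 4812 in Control. The log2 difference of IN@OMVs from Control was -0.039 ± 0.12 (edgeR adjusted p = 0.91), with an interval from -0.32 to 0.24. The Ftl1 estimate (0.39) lies outside that interval, but the interval of Ftl1 ran from 0.15 to 0.63 and overlaps it. Fth1 varied more among treated libraries than among Control libraries, with an SD of 113 CPM in Control, 750 CPM in OMVs and 591 CPM in IN@OMVs.

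Within each library the ratio of Ftl1 to Fth1 counts does not depend on library scaling. It is a ratio of counts, not corrected for transcript length. It was 0.767, 0.748 and 0.797 in IN@OMVs 1, 2 and 3, against 0.566, 0.465 and 0.497 in OMVs and 0.56, 0.583 and 0.573 in Control. The 3 IN@OMVs values were above the other 6. The mean ratio in IN@OMVs was 1.35 times that of Control and 1.51 times that of OMVs (2-sided exact permutation p = 0.1 each, the smallest that 3 against 3 allows, 0.15 adjusted over 3 comparisons). Leaving out 1 library at a time gave 1.32 to 1.37 and 1.45 to 1.6. Both genes were chosen with earlier results of these data known, and the adjustment over 3 comparisons does not cover that choice.

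**Figure D2:**
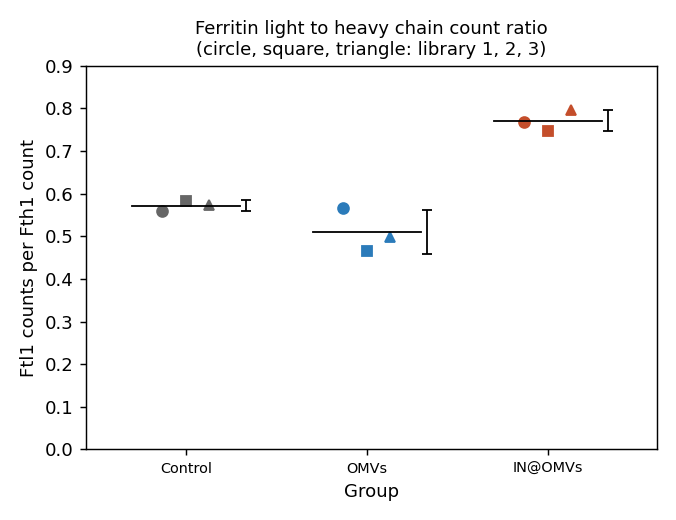
Expected counts of Ftl1 per count of Fth1 (vertical axis, from 0) in each library of Control, OMVs and IN@OMVs, with lines for group means and bars for SD (n = 3). IN@OMVs libraries lie between 0.748 and 0.797 and the other 6 between 0.465 and 0.583.

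Other storage genes showed no called difference. Of 4 listed, 3 were tested: Pcbp1 and Pcbp2, chaperones that deliver iron to ferritin, and Ncoa4, the receptor that takes ferritin to lysosomes for iron release. Their log2 differences in IN@OMVs against Control lay between 0.0078 and 0.086, with 0.023 ± 0.075 for Ncoa4.

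Slc40a1 encodes ferroportin, the only known cellular iron exporter in mammals and the receptor for hepcidin. It is a low-count gene here, with 59 to 217 counts per library. Slc40a1 stood at 10.3, 12.4 and 11.6 CPM in IN@OMVs 1, 2 and 3, at 4.48, 3.44 and 5.62 in OMVs, and at 5.66, 5.73 and 6.57 in Control. The 3 groups did not overlap, with OMVs lowest and IN@OMVs highest, but OMVs 3 (94 counts) nearly met Control 1 (95 counts).

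Slc40a1 rose 1.91-fold against Control (log2 0.93 ± 0.18, edgeR adjusted p = 0.0149) and 2.53-fold against OMVs (1.34 ± 0.18, edgeR adjusted p = 0.00497). The call against OMVs held under each of 18 alternatives. The call against Control ended without IN@OMVs 2 (adjusted p = 0.0503), IN@OMVs 3 (0.055), Control 1 (0.0651) or Control 2 (0.0743), with a log2 difference between 0.87 and 1.00 over the omissions. OMVs against Control had -0.41 ± 0.18 (edgeR adjusted p = 0.591).

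Of the partners of iron export, 1 was tested. Cp encodes ceruloplasmin, the ferroxidase that loads exported iron onto transferrin. Cp fell from 30.7 ± 2.82 (SD) in Control to 14.5 ± 0.857 CPM in IN@OMVs (log2 -1.08 ± 0.10, edgeR adjusted p = 0.000554, called under 18 of 18 alternatives), with 28.1 ± 3.1 CPM in OMVs. Hamp (hepcidin) and the ferroxidase genes Heph and Hephl1 had at most 6, 4 and 4 counts in any library and were not tested.

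Tfrc encodes transferrin receptor 1, which imports iron bound to transferrin. Tfrc stood at 49.5, 51.4 and 57.4 CPM in IN@OMVs 1, 2 and 3, at 92.2, 84.4 and 85.3 in OMVs, and at 85.7, 75.8 and 74.1 in Control. The highest IN@OMVs library was below the lowest of the other 6. In IN@OMVs, Tfrc fell to 0.672 of Control (log2 -0.57 ± 0.079, edgeR adjusted p = 0.0031) and to 0.605 of OMVs (-0.73 ± 0.079, edgeR adjusted p = 0.00184). Both calls held under each of 18 alternatives, with a highest adjusted p of 0.0173 and 0.0117. OMVs and Control overlapped (0.15 ± 0.078, edgeR adjusted p = 0.683).

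Tfrc is also higher in dividing cells, so cell cycle genes are given beside it. Their summed level (8 genes) was 1259 to 1462 CPM in Control, 1366 to 1481 CPM in OMVs and 1083 to 1369 CPM in IN@OMVs. None of the 8 was called in any comparison, and their median log2 difference in IN@OMVs against Control was -0.20, against -0.0024 over all genes tested. The part of cell division in the Tfrc difference was not tested.

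Slc11a2 encodes DMT1, which moves ferrous iron out of endosomes after transferrin uptake. It stood at 48.0, 47.4 and 48.8 CPM in IN@OMVs 1, 2 and 3, at 50.9, 58.7 and 56.3 in OMVs, and at 44.1, 45.1 and 47.9 in Control. OMVs were above both other groups without overlap. The log2 difference was 0.27 ± 0.063 against Control (edgeR adjusted p = 0.163) and that of IN@OMVs from OMVs was -0.20 ± 0.062 (edgeR adjusted p = 0.16), neither past the threshold. DESeq2 called Slc11a2 in OMVs against Control (adjusted p = 0.0423), as did edgeR without the 3 libraries numbered 1 (0.0432). Without those 3 libraries Slc11a2 also passed in IN@OMVs against OMVs (log2 -0.26, edgeR adjusted p = 0.0466).

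Slc11a1 encodes NRAMP1, a metal transporter of the phagosome membrane. C57BL/6 mice carry an allele whose protein does not function, so its RNA stands for no working transporter in these hosts. Slc11a1 stood at 274, 184 and 184 CPM in IN@OMVs 1, 2 and 3, at 204, 214 and 254 in OMVs, and at 210, 211 and 228 in Control. IN@OMVs 1 was the highest of all 9 libraries, and IN@OMVs 2 and 3 were the lowest. The log2 difference of IN@OMVs from Control was -0.013 ± 0.15, with an interval from -0.36 to 0.33. Without the 3 libraries numbered 1, Slc11a1 differed between IN@OMVs and OMVs by -0.35 (edgeR adjusted p = 0.0333), against -0.064 with them (0.911).

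**Figure D3:**
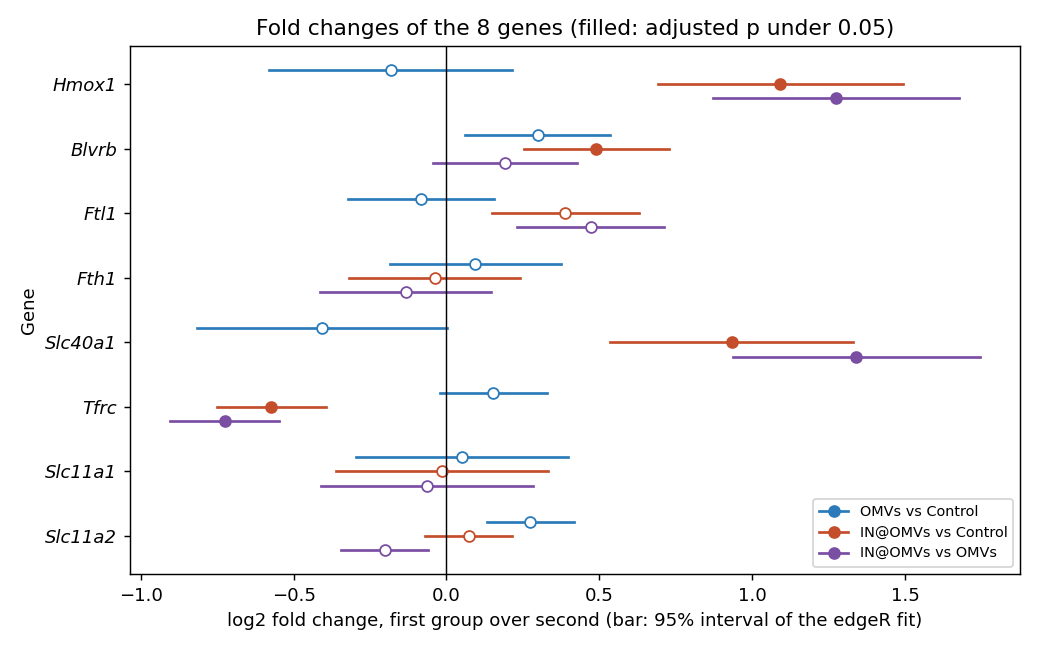
Log2 fold change (horizontal axis, first group over second) of the 8 genes in 3 comparisons, with bars for the 95% interval of the edgeR fit and filled points for an adjusted p under 0.05. For IN@OMVs against Control and against OMVs, Hmox1 lies at 1.09 and 1.27, Slc40a1 at 0.93 and 1.34, and Tfrc at -0.57 and -0.73. No point for OMVs against Control is filled.

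Other genes of haem and iron handling came from 9 lists with 66 genes, of which 59 were tested. Flvcr2, Tfr2 and Cybrd1 had at most 5, 8 and 11 counts, and Ftmt had no row. In IN@OMVs against Control 4 rose and 10 fell, in IN@OMVs against OMVs 4 rose and 8 fell, and in OMVs against Control 0 rose and 3 fell. Over all genes tested 3.32% rose and 3.24% fell in the first of these, 1.1% and 1.75% in the second, and 0.298% and 0.122% in the third. The median log2 difference of the 59 was -0.026 in IN@OMVs against Control, where that of all genes was -0.0024.

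Genes for the uptake and movement of haem and haemoglobin did not move one way: in IN@OMVs against Control, 1 of 8 tested rose and 3 fell. The gene that rose was Slc48a1 (HRG1), which carries haem out of the lysosome towards haem oxygenase. Slc48a1 stood at 118, 111 and 107 CPM in IN@OMVs 1, 2 and 3, at 76.3, 74.3 and 85.4 in OMVs, and at 80.6, 87.8 and 89.4 in Control. No IN@OMVs library overlapped the other 6. The log2 difference was 0.38 ± 0.070 against Control (edgeR adjusted p = 0.0133) and 0.51 ± 0.070 against OMVs (0.00581). Without Control 1, Control 2 or Control 3 the adjusted p against Control was 0.0587, 0.0525 and 0.0502.

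Cd163, the receptor for haemoglobin bound to haptoglobin, stood at 2.71, 2.57 and 2.79 CPM in IN@OMVs 1, 2 and 3, at 2.41, 2.22 and 5.14 in OMVs, and at 10.4, 16.1 and 17.9 in Control. Both treated groups were below every Control library. Haptoglobin itself (Hp) stood at 307, 293 and 277 CPM in Control 1, 2 and 3, at 181, 166 and 199 in OMVs, and at 15.2, 14.4 and 18.1 in IN@OMVs. The 3 groups were apart, with IN@OMVs lowest. Hp fell by 4.20 on the log2 scale in IN@OMVs against Control (edgeR adjusted p = 3.49e-07) and by 0.68 in OMVs against Control (0.0245, and 0.0532 with the block). Cd163 fell by 2.46 on the log2 scale in IN@OMVs against Control (0.00278) and by 2.18 in OMVs against Control. In OMVs against Control the adjusted p of Cd163 was 0.0363 and rose to 0.0592 to 0.208 without any 1 of OMVs 1, 2 or 3, Control 1, 2 or 3, or IN@OMVs 2 or 3. That of Hp passed 0.05 without the same libraries apart from IN@OMVs 2, reaching 0.152. Lrp1, the receptor for haem bound to haemopexin, differed by -0.26 ± 0.055 in IN@OMVs against Control (edgeR adjusted p = 0.0234, and 0.0723 with the block). That call also ended with no filter on low counts (0.0593), in a fit of only these 2 groups (0.061), and without IN@OMVs 2 or 3, OMVs 2, or any 1 Control library (up to 0.123).

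In the iron uptake list 3 of 8 tested genes fell in IN@OMVs against Control and 0 rose. Lcn2, lipocalin 2, which binds bacterial siderophores, stood at 137, 116 and 112 CPM in Control 1, 2 and 3, at 101, 75.0 and 103 in OMVs, and at 8.99, 6.56 and 6.64 in IN@OMVs (log2 -4.04 ± 0.17, edgeR adjusted p = 1.03e-05). The metalloreductase gene Steap4 fell by 3.34 on the log2 scale and Slc39a14 (ZIP14), an importer of iron not bound to transferrin, by 0.85 (edgeR adjusted p = 2.61e-05 and 0.00113). These 3 were also lower in IN@OMVs than in OMVs, and each call held under 18 of 18 alternatives in both comparisons.

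Neutrophil markers moved with Hp and Lcn2, which neutrophils also express. How many neutrophils remained after the sort on CD11b and F4/80 was not tested. In IN@OMVs against Control 9 of 10 tested neutrophil markers fell with a median of -3.44, and the summed list (12 genes) was 790 to 1159 CPM in Control, 564 to 749 CPM in OMVs and 130 to 197 CPM in IN@OMVs. Between 0 and 3 of the 12 were at 0 in a library, and the defining marker Ly6g stood at 3.33 to 5.25 CPM in Control and at 0.114 to 0.123 CPM in IN@OMVs. Monocyte markers moved the same way, with 7 of 9 lower in IN@OMVs against Control (median -1.35), Hp itself being on that list. The part of neutrophil or monocyte RNA in the differences of Hp and Lcn2, or of the members and other listed genes, was not tested.

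**Figure D4:**
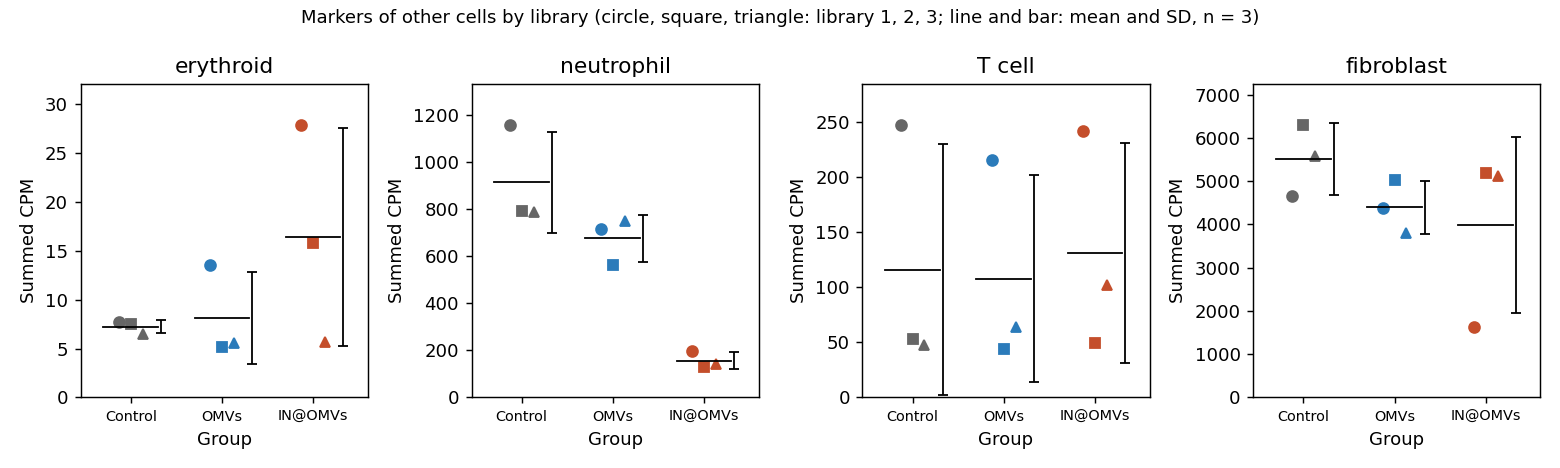
Summed CPM (vertical axes, each from 0) of erythroid, neutrophil, T cell and fibroblast markers in each library by group, with lines for means and bars for SD (n = 3). Neutrophil markers are lowest in the 3 IN@OMVs libraries (130 to 197 CPM), and T cell markers are highest in the 3 libraries numbered 1 (216 to 248 CPM).

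Haem synthesis had 1 called gene of 8. Alas1, the rate-limiting enzyme, fell from 132 ± 4.09 to 98.6 ± 7.98 CPM in IN@OMVs (log2 -0.42 ± 0.098, edgeR adjusted p = 0.0359, and 0.0808 with the block). That call ended without IN@OMVs 2 or 3, OMVs 2, or any 1 Control library, with adjusted p up to 0.125. None of the 10 mitochondrial iron genes was called in any comparison.

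Among the 8 regulators, Fbxl5 and Keap1 were called in IN@OMVs against Control. Fbxl5 encodes the iron-sensing ubiquitin ligase subunit that removes iron regulatory protein 2 when iron is plentiful. Fbxl5 stood at 206, 193 and 205 CPM in IN@OMVs 1, 2 and 3, at 281, 306 and 320 in OMVs, and at 297, 302 and 290 in Control. It fell by 0.55 against Control (edgeR adjusted p = 0.000885) and by 0.58 against OMVs (0.00152), in 18 of 18 alternatives each. Its target Ireb2, which is iron regulatory protein 2, had -0.094 ± 0.068, and Aco1, iron regulatory protein 1, had 0.12 ± 0.073, neither called.

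The transcripts of Nfe2l2 (NRF2) and Bach1 were not called (log2 0.22 ± 0.11 and 0.046 ± 0.085 in IN@OMVs against Control). Keap1, which targets NRF2 for degradation, differed by 0.28 ± 0.065 (edgeR adjusted p = 0.0338, and 0.0633 with the block). That call also ended in a fit of only these 2 groups (0.088), and without IN@OMVs 2 or 3, OMVs 2 or 3, or any 1 Control library (up to 0.162). Spic, the transcription factor of iron-recycling red pulp macrophages, which haem is known to induce, stood at 1.34 to 2.33 CPM over the 9 libraries (log2 -0.16 ± 0.25 in IN@OMVs against Control).

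NRF2 targets outside the members were mixed: 2 of 10 rose and 1 fell in IN@OMVs against Control. Those that rose were Prdx1, a peroxidase (0.50 ± 0.077, edgeR adjusted p = 0.00578), and Gclc, the catalytic subunit of glutathione synthesis (0.38 ± 0.057, 0.00524). The gene that fell was Gsr, glutathione reductase, by 1.25 on the log2 scale (3.69e-05). These 3 calls held under 18 of 18 alternatives. Gsr was also lower in IN@OMVs than in OMVs (log2 -0.81 ± 0.070, edgeR adjusted p = 0.000635). In OMVs against Control it fell as well (-0.45 ± 0.069, edgeR adjusted p = 0.0382), a call kept under 8 of 18 alternatives. Nqo1 (0.58 ± 0.29), Txnrd1 (-0.056 ± 0.049), Srxn1 (0.031 ± 0.059) and Slc7a11 (-0.044 ± 0.065) did not pass. Gclm, the modifier subunit, rose in IN@OMVs against OMVs (0.47 ± 0.090, edgeR adjusted p = 0.0277). That call ended without IN@OMVs 2 or 3, OMVs 1, 2 or 3, or Control 2 (adjusted p up to 0.122).

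**Figure D5:**
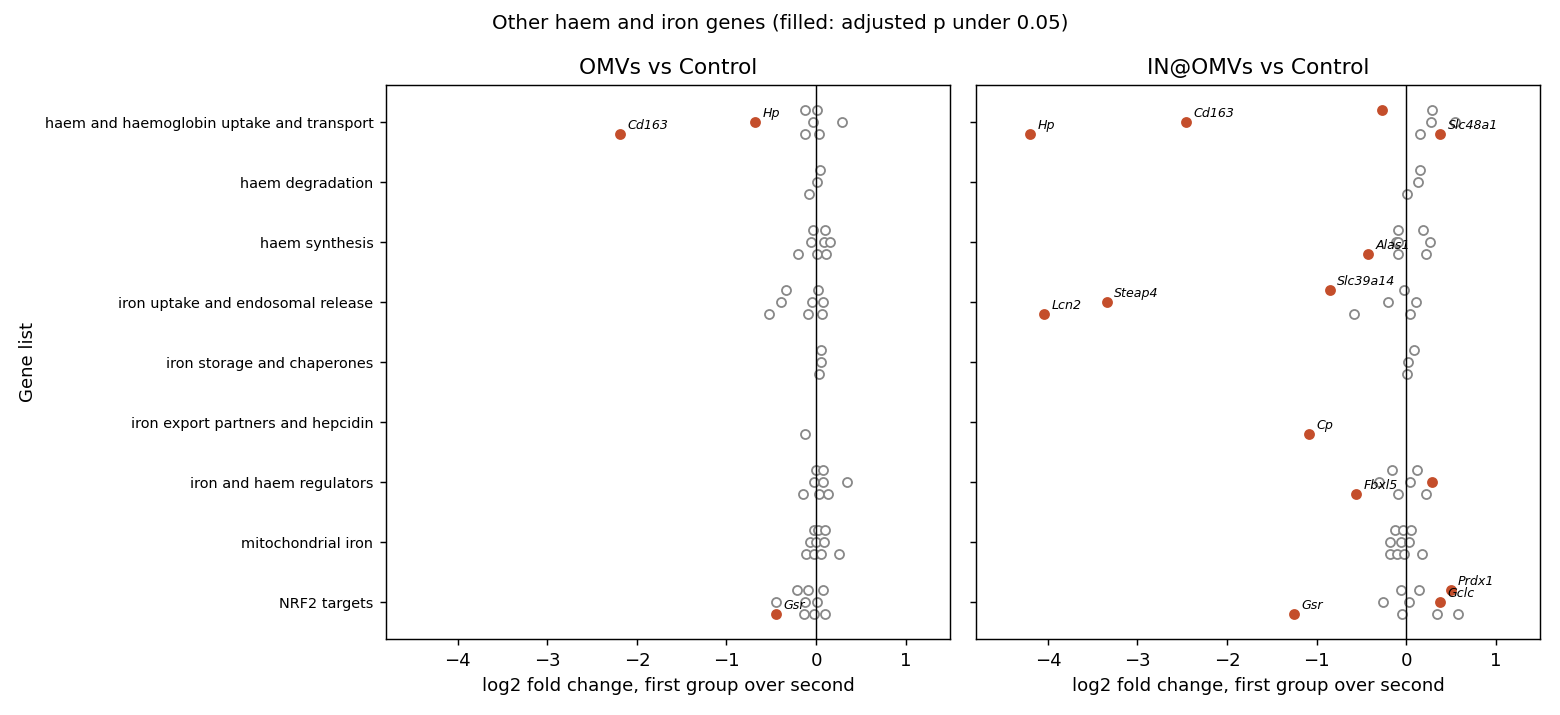
Log2 fold change (horizontal axes) of each tested gene in 9 lists of haem and iron handling (vertical axis) for OMVs and IN@OMVs against the same Control libraries, with filled points for an edgeR adjusted p under 0.05. The lowest points in IN@OMVs are Hp at -4.20, Lcn2 at -4.04 and Steap4 at -3.34, and iron storage and mitochondrial iron genes lie near 0.

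Genes with the pattern most like that of a member were ranked by Pearson's r of log2 CPM over 9 libraries, among 10518 other genes with a mean of at least 5 CPM. For Hmox1 these were Cd36 (r = 0.99), Slc48a1 (0.98) and Prdx1 (0.98). Cd36, a scavenger receptor for lipids, stood at 38.7 ± 9.16 CPM (SD, n = 3) in Control, 31.0 ± 6.83 CPM in OMVs and 90.5 ± 2.54 CPM in IN@OMVs. For Slc40a1 the nearest were Dynlt1b, Slc48a1 and Cd36 (0.96, 0.96 and 0.95). For Tfrc they were Fosl2, Igf2r and Atp11a (0.97, 0.96 and 0.96). For Blvrb they were Oxct1, H2-D1 and Manf (1.00, 0.99 and 0.98). These values rest largely on the group means, with 9 points in 3 groups.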

How the data were processed

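The authors deposited expected counts (estimated reads per gene, not normalised) for 9 libraries. The unit was settled from the values, of which 88.8% to 89.6% per library were whole. RSEM, Bowtie2, BWA and the builds mm9 and hg19 are listed in the submitters' processing notes with no versions or roles, so coordinates here come from the reference annotation alone. Expected counts were rounded and tested with edgeR 4.0.16 (R 4.3.3): TMM factors, filterByExpr, 1 mean per group over 9 libraries, the quasi-likelihood test, and Benjamini-Hochberg adjustment over 13090 genes per comparison at 0.05. The common dispersion was 0.0172 with 6 residual degrees of freedom. SE and 95% intervals are from that fit. Limma 3.58.1 (voom) and DESeq2 1.42.0 served as alternatives, as did other scaling, filters, single-library omissions and fits of 2 groups. Only the edgeR test was run on simulated data, with the common dispersion used for all genes, and the other steps were not.

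The members and lists were chosen with earlier results of these data known. All 8 members are given whatever their p. From each other list, up to 4 called genes with the smallest p are named, and others are named by function after their values were seen. The main fit had no pairing, and replicate numbers were treated as pairs only in the alternative with a block. For both comparisons with Control, deviations from group means of same-numbered libraries correlated above 0.1 (0.52, 0.36 and 0.12 for OMVs, and 0.45, 0.30 and 0.14 for IN@OMVs). Some differently numbered libraries correlated more. IN@OMVs 2 had 0.36 with Control 3, IN@OMVs 3 had 0.29 with Control 2, and OMVs 2 had 0.33 with Control 3. Pairing by number therefore rests on the values alone and is uncertain.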

Additional observations from a re-analysis of the deposited data

How the results depend on the processing

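Hmox1 and Tfrc in both IN@OMVs comparisons, and Slc40a1 against OMVs, kept their calls under 18 of 18 alternatives. The number of members called in IN@OMVs against Control was 2 to 4 over omissions of 1 library, with 2 without IN@OMVs 2, Control 1 or Control 2. In IN@OMVs against OMVs it was 3 to 4, and 5 without the 3 libraries numbered 1. In OMVs against Control it was 1 with DESeq2 and 1 without the libraries numbered 1, and 0 in each omission. Signs of 2 uncalled genes turned over omissions: Slc11a1 ran from -0.050 to 0.12 in OMVs against Control, -0.23 to 0.085 in IN@OMVs against Control and -0.28 to 0.038 in IN@OMVs against OMVs. Fth1 ran from -0.019 to 0.20 in OMVs against Control and from -0.15 to 0.041 in IN@OMVs against Control. The cause was not tested.

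Counts over all genes moved more. OMVs against Control gave 55 genes, 207 with DESeq2, 36 with limma-voom, 115 with 2 groups, 313 without the libraries numbered 1 and 0 to 266 over omissions (0 without OMVs 2, OMVs 3, Control 2 or Control 3, where 734, 942, 787 and 803 had an unadjusted p under 0.05). IN@OMVs against Control gave 858, 519 with 2 groups, 1475 without the libraries numbered 1 and 393 to 1635 over omissions. IN@OMVs against OMVs gave 373, and 646 with DESeq2, 195 with 2 groups, 844 without the libraries numbered 1 and 180 to 786. The other haem and iron genes called in OMVs against Control were 0 to 3 over omissions.

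With the replicate number as a block, OMVs against Control had 20 genes called and 1 of the other haem and iron genes (Cd163; adjusted p of Gsr 0.107). Beyond those and the values given beside Blvrb, Hp, Lrp1, Alas1 and Keap1, the block changed no call of a member or listed gene. In IN@OMVs against OMVs the same-number correlations were 0.086, 0.49 and -0.35, so the values did not back pairing by number there. The alternative with a block covered that comparison all the same, with 306 genes and 3 members called. Each comparison held a library that correlated more with a different number than with its own. Omission of 1 library leaves 2 in its group, and alternatives for the other listed genes and for the libraries numbered 1 were chosen after seeing the data.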

Other observations

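Library IN@OMVs 1 was the highest of its group for 5 of the 8 genes, Hmox1, Blvrb, Ftl1, Fth1 and Slc11a1, and the lowest for Slc40a1 and Tfrc. Its Fth1 (5200 CPM) and Slc11a1 (274 CPM) were above those of all 3 Control libraries, whereas Fth1 in IN@OMVs 2 and 3 (4435 and 4038 CPM) was below all of them. The same library had the highest summed macrophage markers (12896 CPM) and the lowest summed fibroblast markers (1633 CPM) of the 9. Across the 9 libraries Fth1 followed Slc11a1 (Pearson's r = 0.85 of log2 CPM) more closely than Ftl1 (0.09), and Ftl1 followed Hmox1 (0.94). These correlations are over libraries of 3 groups and carry no test.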
